A study of Rattus norvegicus with 21 samples.

Results

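The comparison described here is the relaxin (RLX) effect in old female hearts. Left ventricles of 4 female F-344/Brown Norway rats aged 24 months and treated with RLX were set against those of 4 female rats of the same strain and age given vehicle (CTRL). The libraries were taken by their labels alone and are 8 of the 21 libraries analysed in the series, and all genes were considered, of which 12591 of the 26597 in the tables had enough counts to be tested. RLX (400 ug/kg/day) or the vehicle, sodium acetate, was given for 14 days by subcutaneous osmotic mini pumps, so the CTRL rats also carried a pump. Each library is the left ventricle of a separate rat, and p-values measure the spread between these rats. The RLX rats are numbered 1, 2, 4 and 6 and the CTRL rats 2, 4, 5 and 6 in the labels, and values below are given in that order. The same treatment in 24-month-old males (3 RLX, 3 CTRL) is used only at the end, for the difference between the sexes.

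Relaxin is a peptide hormone of pregnancy that acts through the receptor Rxfp1, which is coupled to cyclic AMP and nitric oxide signaling. In the heart it is known for relaxing vessels and for limiting fibroblast activation and collagen secretion. A whole ventricle holds cardiomyocytes, which supply most of its RNA, beside fibroblasts, endothelial and mural cells, macrophages and a few lymphocytes. In such tissue, fewer cells of a type and less RNA per cell cannot be told apart.

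Total counts ran from 13793068 to 15857194 in RLX libraries and from 13619241 to 16937783 in CTRL libraries. The mitochondrial genome took 36.5 to 46.8% of counts in RLX libraries and 30.9 to 42.7% in CTRL libraries. On the first principal component (29.2% of the variance) the RLX rats lay at -28.7 to -2.77 and the CTRL rats at -1.75 to 36.1, with CTRL rat 6 farthest out. Heart muscle and macrophage markers were present in every library, and some libraries stood apart in other markers. RLX rat 4 held 6324 CPM (counts scaled to a common, TMM-normalized library size) of hemoglobin beta (Hbb), against 2.28 to 4.55 in the other RLX rats, and CTRL rat 6 held 752 CPM, against 3.16 to 13.3 in the other CTRL rats. The neutrophil gene S100a9 was also highest in these rats, at 20.6 CPM in RLX rat 4 and 4.87 CPM in CTRL rat 6. The atrial muscle gene Myl4 stood at 63.0 CPM in CTRL rat 5 and at 39.1 CPM in RLX rat 1. Values without RLX rat 4 and CTRL rats 5 and 6 together, which leaves 3 RLX and 2 CTRL rats, are given where they moved by over 1.5 times or gave a call. RLX rat 1, the highest of the RLX rats in Myl4, stays in that setting. The rats left out stood apart in these same data, so calls in that setting are no independent evidence.

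A gene counted as a differentially expressed gene (DEG) if its false discovery rate (FDR) was 0.05 or less, its fold change exceeded 1.5 in size and either group averaged an RPKM (reads scaled by gene length and library total) of 1 or more. No gene met these limits. In edgeR's quasi-likelihood test the smallest adjusted p was 0.0661, 88 genes had an adjusted p of at most 0.10, and the share of genes called was 0% in either direction. Without adjustment, 983 genes (7.81%) were lower and 789 (6.27%) were higher with RLX at p under 0.05. In 529 genes (4.20%) all 4 RLX values lay below all 4 CTRL values, and in 462 genes (3.67%) they all lay above. Less cautious tests did make calls: DESeq2 gave 117 lower and 20 higher DEGs and edgeR's exact test 108 lower and 11 higher. Genes with an FDR of at most 0.05 in both of these tests numbered 126 lower (1.00%) and 27 higher (0.214%). The median log2 fold change of all genes was -0.01, and the central 90% ran from -0.56 to 0.39. Most genes therefore differed little, and the calls of DESeq2 and the exact test were mainly lower with RLX. Removing a trend on gene length turned the split at p under 0.05 to 897 lower and 1160 higher. The higher genes numbered 505 without RLX rat 6 and 517 without CTRL rat 6. Without RLX rat 4 and CTRL rats 5 and 6 together, the quasi-likelihood test gave 38 lower and 2 higher DEGs.

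Gene lists sorted these differences by function. The counts below stand against shares of all genes of 7.81% lower and 6.27% higher at p under 0.05. For groups without overlap these shares were 4.20% lower and 3.67% higher. The lists of antigen presentation, macrophages, complement, T cells, extracellular matrix and lysosomes held lower genes almost alone. The lists of cardiomyocyte, sarcomere, channel and glucose genes held higher genes almost alone. Of 18 heat shock genes 11 were lower and 2 higher at p under 0.05.

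**Figure D1:**
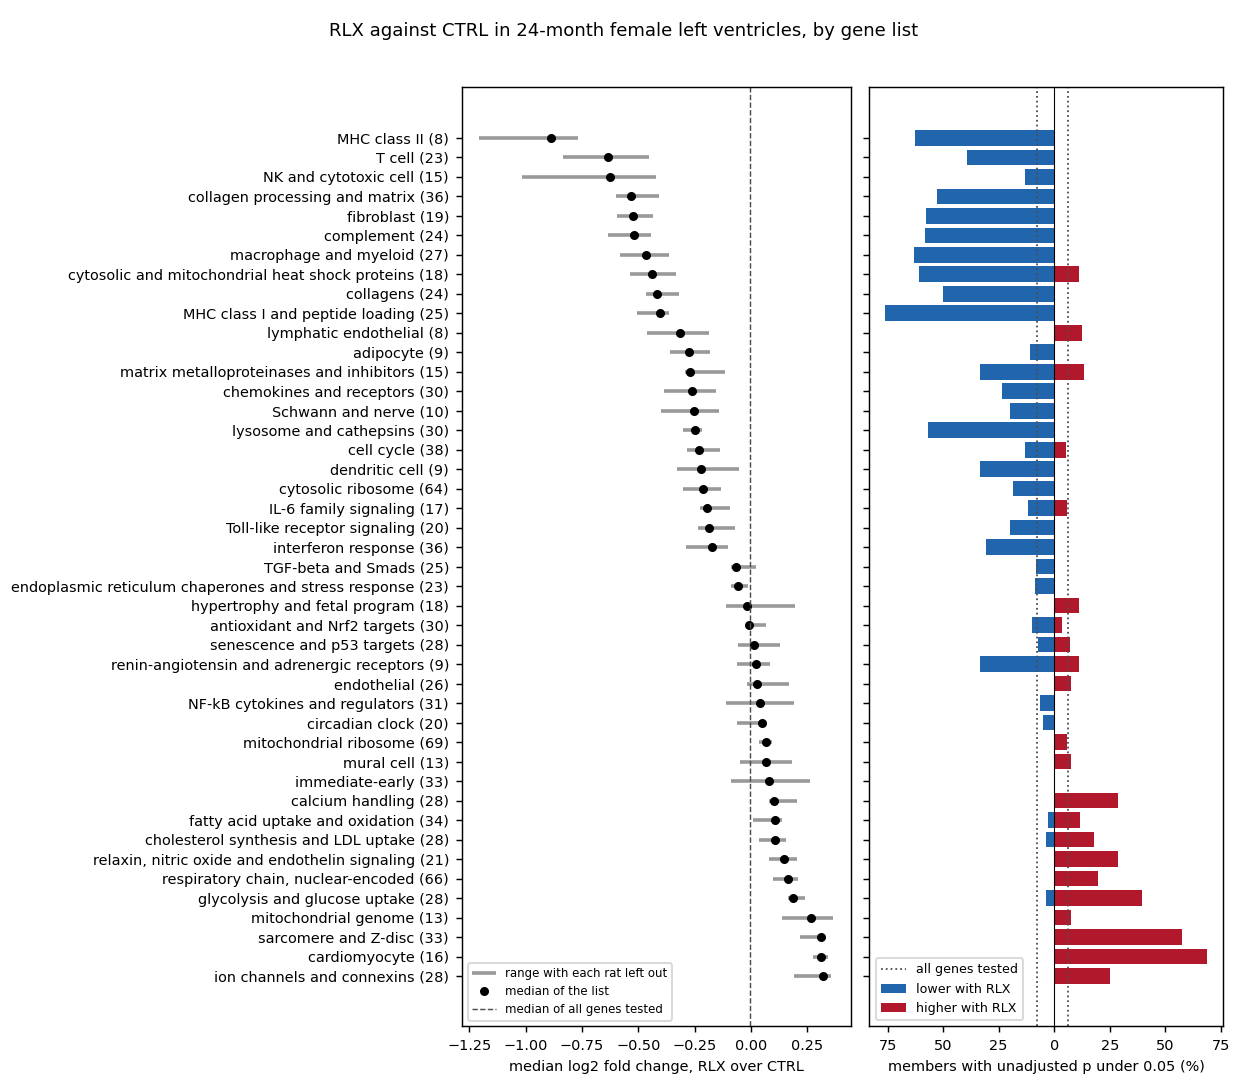
The left panel plots the median log2 fold change (RLX minus CTRL) of each gene list as a point, with a line for its range when each library is left out in turn and a dashed line at the median of all genes, -0.01. The right panel plots the percent of tested members at an unadjusted p under 0.05, lower with RLX to the left in blue and higher to the right in red, with dotted lines at the shares of all genes, 7.81% and 6.27%: MHC class II has the lowest median, -0.89, and the cardiomyocyte list has 11 of 16 members higher and none lower.

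Genes that load and display peptides to T cells had the lowest median of the lists in the plot. Of 8 tested MHC class II genes, 5 were lower at p under 0.05, against 7.81% of all genes, and in all 5 the groups did not overlap and both DESeq2 and the exact test made the call. The median log2 fold change of the 8 genes was -0.89, and all were negative. RT1-Ba, RT1-Da and RT1-Db1 encode chains of the rat class II molecules, which antigen-presenting cells use to show peptides to CD4 T cells. Their RefSeq promoters (build GRCr8) share the Y box, the element through which nuclear factor Y is known to act at class II genes, and 60 bases of each are shown 5′ to 3′ with the Y box in capitals, RT1-Ba at chr20:4576987-4577046 (plus strand), RT1-Da at chr20:4515339-4515398 (plus strand) and RT1-Db1 at chr20:4560210-4560269 (minus strand).
RT1-Ba: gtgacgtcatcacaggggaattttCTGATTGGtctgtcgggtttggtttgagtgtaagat
RT1-Da: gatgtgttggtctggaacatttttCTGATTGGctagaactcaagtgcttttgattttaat
RT1-Db1: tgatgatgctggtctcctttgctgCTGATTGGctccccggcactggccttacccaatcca
The letters CTGATTGG, on either strand of the 250 bases before the start, were found in 4 of the 6 class II genes with a promoter entry and in 1068 of 33469 promoters of the same length (3.19%). The Y box letters were also found in 5 of 22 genes of MHC class I and peptide loading with an entry. A listed gene counted if any of its promoters matched. The 33469 promoters, of 27457 genes, were counted singly, so the shares are not like for like. A match is a description of the sequence and not a measured binding site.

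Cd74, the invariant chain that guides class II molecules to the endosome, had 454, 566, 403 and 502 CPM in RLX rats, against 903, 725, 837 and 797 CPM in CTRL rats. The RLX rats averaged 481 ± 69.7 CPM and the CTRL rats 816 ± 74.4 CPM (SD, n = 4 each), a 1.69-fold lower level with RLX and no overlap. Its log2 fold change was -0.76 ± 0.12 (SE), with an unadjusted p of 3.43e-05 and an adjusted p of 0.0661 in edgeR's quasi-likelihood test. The adjusted p was 0.0214 when the 9-month CTRL females entered the same fit.

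RT1-DMa, a chain of the DM molecule that exchanges peptides on class II, had 6.89, 6.14, 5.21 and 6.12 CPM in RLX rats, against 12.6, 12.1, 11.9 and 23.0 CPM in CTRL rats. CTRL rat 6 was well above the other CTRL rats, and every RLX rat lay below every CTRL rat. The log2 fold change was -1.29 ± 0.22 (unadjusted p = 9.43e-05) and -0.94 (adjusted p = 0.0465 in edgeR's quasi-likelihood test) without RLX rat 4 and CTRL rats 5 and 6. RT1-Db1 had 116, 169, 80.6 and 136 CPM in RLX rats, against 328, 238, 259 and 275 CPM in CTRL rats, and a log2 fold change of -1.13 ± 0.20 (unadjusted p = 2.05e-04). RT1-Ba and RT1-Da followed the same order of rats, with log2 fold changes of -1.08 ± 0.19 and -1.02 ± 0.21. In these 3 genes RLX rat 4 was the lowest of the RLX rats and CTRL rat 2 the highest of the CTRL rats. The remaining class II genes differed less: RT1-DOa was at -0.54, RT1-DMb at -0.09 and the class II activator Ciita at -0.65 on the log2 scale. RT1 genes form a family of close copies, so reads may be shared between them.

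MHC class I molecules show peptides from the cytosol to CD8 T cells. All 25 tested genes of class I and peptide loading had a negative log2 fold change, with a median of -0.40, and 19 were lower at p under 0.05. In 12 all RLX rats lay below all CTRL rats, against 4.20% of all genes. Tap1, a subunit of the pump that carries peptides into the endoplasmic reticulum, had 34.9, 43.7, 34.4 and 49.5 CPM in RLX rats, against 68.4, 66.2, 65.1 and 59.95 CPM in CTRL rats (log2 fold change -0.68 ± 0.12, unadjusted p = 8.59e-05). The CTRL rats were close together and all above the RLX rats. Among the class I chains, RT1-A2 had 184, 225, 171 and 193 CPM in RLX rats, against 319.6, 281, 249 and 284 CPM in CTRL rats. RT1-S3, RT1-A2 and RT1-CE4 had log2 fold changes of -0.51 ± 0.09, -0.55 ± 0.11 and -0.71 ± 0.15, each without overlap.

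**Figure D2:**
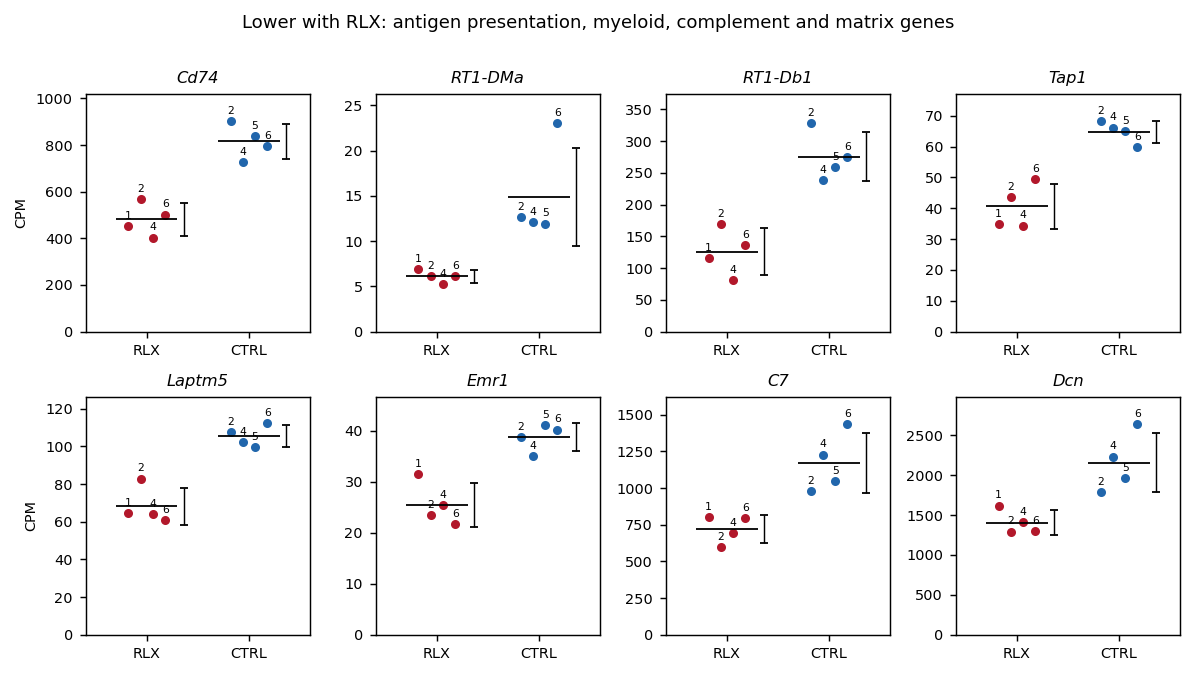
Each panel plots CPM (vertical axis) of a gene in the 4 RLX rats (left) and the 4 CTRL rats (right), each point labelled with its rat number, with a black line for the mean and a bar for the SD. Cd74, RT1-DMa, RT1-Db1, Tap1, Laptm5, Emr1, C7 and Dcn were each lower in all RLX rats than in all CTRL rats, as Cd74 shows with 403 to 566 CPM against 725 to 903 CPM.

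Macrophages are the most numerous immune cells of the ventricle. Of 27 tested macrophage and myeloid genes, all had a negative log2 fold change (median -0.47), 17 were lower at p under 0.05 and none was higher, and 8 did not overlap. Emr1, a surface receptor that defines rodent macrophages, had 31.5, 23.5, 25.4 and 21.6 CPM in RLX rats, against 38.7, 35.0, 41.1 and 40.2 CPM in CTRL rats, a log2 fold change of -0.60 ± 0.12 (unadjusted p = 2.63e-04). Laptm5, a lysosomal membrane protein of blood cells, had 64.7, 82.9, 63.9 and 61.0 CPM in RLX rats, against 108, 102, 99.4 and 112 CPM in CTRL rats (-0.63 ± 0.11 on the log2 scale, unadjusted p = 5.70e-05). The groups were separate in both genes. Spi1, the transcription factor PU.1 of myeloid cells, was at 7.46 to 10.5 CPM in RLX rats, against 13.04 to 17.6 CPM in CTRL rats. The Fc receptor gene Fcgr3a, which binds antibody-coated targets, had a low level of 1.05 to 2.01 CPM in RLX rats, against 2.64 to 3.23 CPM in CTRL rats, and a log2 fold change of -1.10 ± 0.23. Clec10a, a lectin of macrophages and dendritic cells, overlapped at 32.3 to 55.5 CPM in RLX rats, against 54.2 to 76.0 CPM in CTRL rats.

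Summed over the list, macrophage and myeloid genes came to 716 to 1094 CPM in RLX rats, against 1154 to 1361 CPM in CTRL rats. The 16 cardiomyocyte marker genes all had a positive log2 fold change and summed to 60674 to 68429 CPM in RLX rats, against 50459 to 54408 CPM in CTRL rats, and the part of this opposite difference in the lower immune values was not tested.

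Complement is a cascade of plasma proteins that tags and lyses targets, and fibroblasts and macrophages of the heart make several of its parts. Of 24 tested genes, 14 were lower at p under 0.05, 11 without overlap, and none was higher (median -0.52). C7, a component of the membrane attack complex, had 802, 598, 691 and 798 CPM in RLX rats, against 980.4, 1228, 1045 and 1434 CPM in CTRL rats (-0.70 ± 0.14 on the log2 scale, unadjusted p = 2.82e-04). C1s and C1r, the proteases that start the classical pathway, were at 252 to 327 and 123 to 138 CPM in RLX rats, against 372 to 476 and 150.2 to 229 CPM in CTRL rats. A C2 gene model of the tables (C2_3), which overlaps other models of C2 and is therefore uncertain, had a log2 fold change of -0.77 ± 0.13. Itgb2, the shared chain of the leukocyte complement receptors, had 10.7 to 12.0 CPM in RLX rats, against 13.4 to 17.0 CPM in CTRL rats.

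Lymphocyte genes were at low levels in every library. All 23 tested T cell genes had a negative log2 fold change (median -0.63), and 9 were lower at p under 0.05, but most overlapped between the groups. Cd2, an adhesion receptor of T and NK cells, had 1.99, 3.47, 3.84 and 6.86 CPM in RLX rats, against 9.89, 6.71, 8.10 and 6.23 CPM in CTRL rats, so that RLX rat 6 lay among the CTRL rats (-0.95 ± 0.31 on the log2 scale, unadjusted p = 0.0124). Zap70 and Cd247, which relay the T cell receptor signal, had log2 fold changes of -0.63 ± 0.21 and -0.70 ± 0.24. The 1 member without overlap was Gata3, a transcription factor of T helper cells named after its values were seen, at a level below 1 CPM in all 8 rats (-0.84 ± 0.34, unadjusted p = 0.0307). At that level a gene can pass the count filter through its higher group alone, so the separation is no support. The T cell list summed to 99.1 to 145 CPM in RLX rats, against 161 to 204 CPM in CTRL rats. In NK and cytotoxic genes 2 of 15 were lower at p under 0.05 and the median of -0.62 moved between -1.01 and -0.42 when single libraries were left out. It was -1.33 without RLX rat 4 and CTRL rats 5 and 6. Klrd1, an NK receptor chain, was at 13.4 to 19.1 CPM in RLX rats, against 14.6 to 33.3 CPM in CTRL rats.

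Interferons switch on a set of antiviral and antigen processing genes. Of 36 interferon response genes, 11 were lower at p under 0.05 and none higher, with a median of -0.17. In 4 of the 36 all RLX rats lay below all CTRL rats, against 4.20% of all genes. Ifi47, an interferon-inducible GTPase, had 33.9, 38.6, 32.8 and 36.2 CPM in RLX rats, against 52.0, 55.5, 47.5 and 43.8 CPM in CTRL rats (-0.49 ± 0.10, unadjusted p = 2.78e-04). Gbp2, a guanylate-binding protein of the same response, had 45.6, 48.7, 37.2 and 55.3 CPM in RLX rats, against 75.4, 65.4, 77.5 and 55.9 CPM in CTRL rats (-0.55 ± 0.13, unadjusted p = 0.00132). RLX rat 6 and CTRL rat 6 nearly met in Gbp2. Irf8, a transcription factor of myeloid cells, had a log2 fold change of -0.68 ± 0.18. The core of interferon response elements, GAAA and GAAA with any 2 bases between them, lies before the start of both Tap1 and Gbp2, shown 5′ to 3′ with the element in capitals on the opposite strand (RefSeq, GRCr8; Tap1 chr20:4668629-4668688, minus strand; Gbp2 chr2:234005667-234005726, plus strand).
Tap1: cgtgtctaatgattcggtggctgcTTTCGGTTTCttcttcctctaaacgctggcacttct
Gbp2: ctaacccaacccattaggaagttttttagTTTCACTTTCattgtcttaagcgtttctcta
On either strand of the 250 bases before the start, this pattern occurred in 17 of 26 interferon response genes and 7 of 22 class I genes with an entry, and in 1140 of 33469 promoters (3.41%). Genes counted if any of their promoters matched, and the 33469 promoters were counted singly.

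Chemokine and cytokine genes varied widely between rats. Of 30 chemokine and chemokine receptor genes, 7 were lower at p under 0.05 and none higher (median -0.26). Cxcl16, a ligand of T cells, was the member without overlap, at 38.3 to 45.9 CPM in RLX rats, against 49.9 to 58.1 CPM in CTRL rats. Cxcl9, an interferon-induced T cell chemokine, had 22.5, 34.0, 20.1 and 35.2 CPM in RLX rats, against 52.0, 52.7, 51.1 and 30.1 CPM in CTRL rats, where CTRL rat 6 lay among the RLX rats (-0.74 ± 0.23, unadjusted p = 0.0120). Cxcl12, which retains stem and immune cells, had a log2 fold change of -0.33 ± 0.11. NF-kB is a transcription factor that drives cytokine genes. Of its 31 listed genes 2 were lower at p under 0.05, against 7.81% of all genes, and none was higher (median 0.04). Nfkb1, its p50 precursor, had 42.5 to 48.7 CPM in RLX rats, against 49.1 to 72.2 CPM in CTRL rats, a narrow gap (-0.31 ± 0.12, unadjusted p = 0.0261). Of 20 Toll-like receptor signaling genes 4 were lower at p under 0.05. Ly86, a partner of the receptor-like protein RP105, had 3.15 to 4.25 CPM in RLX rats, against 4.98 to 7.35 CPM in CTRL rats (-0.83 ± 0.18, unadjusted p = 4.52e-04). Unc93b1, which moves Toll-like receptors to endosomes, had 18.5 to 22.6 CPM in RLX rats, against 26.2 to 38.5 CPM in CTRL rats. Myd88, their adaptor, overlapped at 26.7 to 39.0 CPM in RLX rats, against 34.8 to 50.8 CPM in CTRL rats (-0.43 on the log2 scale). Without RLX rat 4 and CTRL rats 5 and 6 the log2 fold change of Myd88 was -0.73, with an adjusted p of 0.0488 in edgeR's quasi-likelihood test.

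Fibroblasts build the matrix between muscle cells. Of 24 collagen genes, 12 were lower at p under 0.05 and none higher (median -0.42), with 4 that did not overlap. Col1a2, a chain of fibrillar type I collagen, had 140.1, 114, 175 and 164 CPM in RLX rats, against 207, 169.7, 301 and 266 CPM in CTRL rats (-0.67 ± 0.19, unadjusted p = 0.00442). RLX rat 4 and CTRL rat 4 crossed in that gene. Col6a1, of the pericellular type VI collagen, had 87.9 to 118 CPM in RLX rats, against 121 to 140.0 CPM in CTRL rats, and Col15a1, of basement membranes, had 75.7 to 98.2 CPM in RLX rats, against 108 to 138 CPM in CTRL rats. The basement membrane chain Col4a5 had a log2 fold change of -0.56 ± 0.17. Among 36 genes of collagen processing and other matrix proteins, 19 were lower at p under 0.05, 8 without overlap, and none was higher (median -0.53).

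Decorin (Dcn) and lumican (Lum) are small proteoglycans that space collagen fibrils. Dcn had 1619, 1291, 1409.8 and 1294 CPM in RLX rats, against 1789, 2232, 1962 and 2642 CPM in CTRL rats (-0.62 ± 0.13, unadjusted p = 4.87e-04), and Lum had 199 to 312 CPM in RLX rats, against 328 to 421 CPM in CTRL rats. RLX rat 1 was the closest to the CTRL rats in both. Fbln5, an elastic fiber protein, had 15.8 to 19.1 CPM in RLX rats, against 19.5 to 35.9 CPM in CTRL rats. Serpinh1 encodes Hsp47, the collagen chaperone, and had 215, 213, 232 and 182 CPM in RLX rats, against 293, 317, 435 and 442 CPM in CTRL rats. Its log2 fold change was -0.82 ± 0.15 (unadjusted p = 1.01e-04, adjusted p = 0.0698 in edgeR's quasi-likelihood test). Of 19 fibroblast markers 11 were lower at p under 0.05, and the list summed to 4964 to 6224 CPM in RLX rats, against 6381 to 9323 CPM in CTRL rats. Medians of the matrix lists were smaller without RLX rat 4 and CTRL rats 5 and 6: -0.22 for collagens, -0.20 for collagen processing and -0.35 for fibroblast markers.

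Enzymes that cut the matrix were mixed. Of 15 matrix metalloproteinases and inhibitors 5 were lower and 2 higher at p under 0.05. Mmp23 had 8.70, 7.48, 9.26 and 8.20 CPM in RLX rats, against 11.3, 12.1, 13.8 and 15.9 CPM in CTRL rats (-0.66 ± 0.14, unadjusted p = 3.83e-04). Timp1, an inhibitor of these enzymes, had 23.6 to 44.9 CPM in RLX rats, against 46.1 to 62.5 CPM in CTRL rats. Mmp14, a membrane-bound collagenase, was on the other side with 17.8 to 25.1 CPM in RLX rats, against 15.2 to 19.6 CPM in CTRL rats (0.39 ± 0.13). In the TGF-beta pathway, which drives matrix synthesis, 2 of 25 genes were lower at p under 0.05, near the 7.81% of all genes. Its ligand gene Tgfb3 had 40.7, 37.3, 43.6 and 38.6 CPM in RLX rats, against 49.5, 51.6, 58.9 and 64.0 CPM in CTRL rats (-0.48 ± 0.10, unadjusted p = 3.82e-04), the groups being separate. Vessel cell genes differed little: 0 of 26 endothelial genes were lower and 2 higher, and 0 of 13 mural cell genes were lower and 1 higher, at p under 0.05.

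Heat shock proteins hold other proteins in shape and are induced by the factor Hsf1 when proteins unfold. Of 41 chaperone and unfolded protein response genes, 13 were lower and 2 higher at p under 0.05. Nearly all of this lay in the 18 cytosolic and mitochondrial heat shock genes, a subset separated after the values were seen, of which 11 were lower, 2 were higher and 8 of the lower did not overlap. In the other 23, chaperones and sensors of the endoplasmic reticulum and genes of the stress response, 2 were lower. Hsph1 and Serpinh1 show the heat shock element in their RefSeq promoters (GRCr8; Hsph1 chr12:10427308-10427367, plus strand; Serpinh1 chr1:163062977-163063036, minus strand), written 5′ to 3′ with the element in capitals on the opposite strand.
Hsph1: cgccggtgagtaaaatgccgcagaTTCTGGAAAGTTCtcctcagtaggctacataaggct
Serpinh1: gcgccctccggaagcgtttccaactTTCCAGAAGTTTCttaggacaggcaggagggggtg
The element was searched as GAA, TTC and GAA with any 2 bases between each, on either strand of the 250 bases before the start, and occurred in 4 of 13 heat shock genes with an entry, Hsph1 among them, and in 222 of 33469 promoters (0.663%). Genes counted if any of their promoters matched, and the 33469 promoters were counted singly.

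Hsp90aa1, the inducible Hsp90, had 811, 855, 1224 and 671 CPM in RLX rats, against 1667, 2399, 2619 and 3959.9 CPM in CTRL rats. RLX rat 4 was the highest of the RLX rats and CTRL rat 6 the highest of the CTRL rats, with a clear gap between the groups. The level was 2.99-fold lower with RLX (-1.58 ± 0.28 on the log2 scale, unadjusted p = 3.24e-04, adjusted p = 0.0868 in edgeR's quasi-likelihood test), and DESeq2 gave an adjusted p of 2.1e-07. Hsph1, which encodes Hsp110, a nucleotide exchange factor of Hsp70, had 99.7, 101, 218 and 74.2 CPM in RLX rats, against 299, 554, 569 and 1015 CPM in CTRL rats (-2.31 ± 0.48, unadjusted p = 0.00196). Hspa1a, an inducible Hsp70, had 281, 354, 1250.0 and 444 CPM in RLX rats, against 2223, 2673, 2049 and 7527 CPM in CTRL rats. It has a near-identical copy, Hspa1b, so its reads may be split between them. The log2 fold change of Hspa1a was -2.64 ± 0.70 (unadjusted p = 0.00763) and it ran from -3.33 to -1.99 as each library was left out.

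The co-chaperones Dnajb1 and Dnaja1 and the small heat shock protein Hspb1 were likewise highest in RLX rat 4 and CTRL rat 6 within their groups. Dnajb1 had 71.4, 69.6, 146 and 73.5 CPM in RLX rats, against 202, 388, 195 and 462 CPM in CTRL rats (-1.79 ± 0.39). Dnaja1 and Hspb1 had log2 fold changes of -1.23 ± 0.23 and -1.06 ± 0.23, each without overlap. Hspb7 and Hspb6, small heat shock proteins of striated muscle, were the 2 higher members, with log2 fold changes of 0.32 ± 0.11 and 0.25 ± 0.11. Without RLX rat 4 and CTRL rats 5 and 6, Hsp90aa1, Hsph1, Hspa1a and Dnajb1 had log2 fold changes of -1.38, -2.21, -2.76 and -2.04 and adjusted p-values of 0.0230, 0.0273, 2.36e-04 and 0.0273 in edgeR's quasi-likelihood test. Hspa5, the Hsp70 of the endoplasmic reticulum, had 311 to 419 CPM in RLX rats, against 349.7 to 419.6 CPM in CTRL rats (-0.05 ± 0.11, unadjusted p = 0.680). The mitochondrial chaperone Hspd1 had 300.3 to 341 CPM in RLX rats, against 332 to 555 CPM in CTRL rats.

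**Figure D3:**
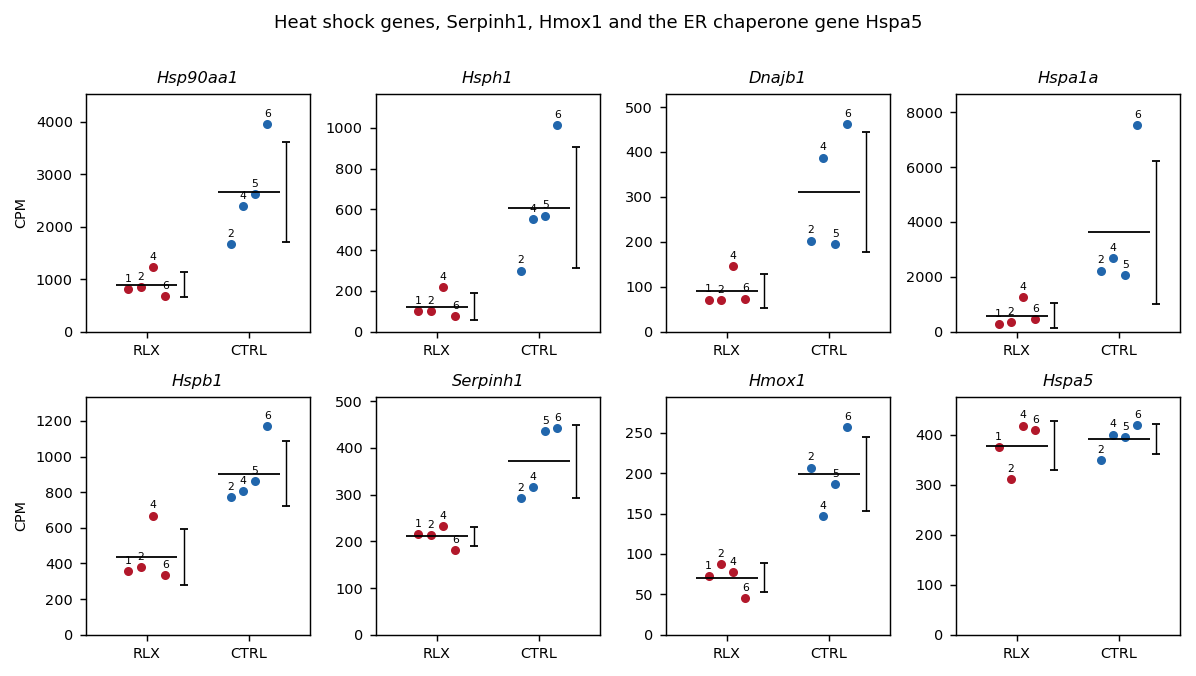
Each panel plots CPM (vertical axis, from 0) of a gene in the 4 RLX rats (left) and the 4 CTRL rats (right), labelled by rat number, with a black line for the mean and a bar for the SD. Hsp90aa1, Hsph1, Dnajb1, Hspa1a, Hspb1, Serpinh1 and Hmox1 were separate between the groups, with RLX rat 4 the highest of the RLX rats in all but Hmox1, while Hspa5 overlapped at 311 to 419 CPM against 349.7 to 419.6 CPM.

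Heme oxygenase 1 (Hmox1) breaks down heme and is induced by oxidative stress and by heme itself. It had 72.4, 87.6, 77.3 and 45.7 CPM in RLX rats, against 207, 147, 186 and 257 CPM in CTRL rats, with averages of 70.7 ± 17.8 CPM and 199 ± 45.8 CPM (SD, n = 4 each). The level was 2.82-fold lower with RLX, a log2 fold change of -1.496 ± 0.22 (unadjusted p = 6.30e-05, adjusted p = 0.0661 in edgeR's quasi-likelihood test). It stayed between -1.62 and -1.33 as each library was left out. Of the CTRL rats, rat 6 held the most Hbb and was the highest in Hmox1. CTRL rat 2 held the least Hbb (3.16 CPM) and was the second highest in Hmox1. Of the RLX rats, rat 4 held the most Hbb and was the second highest in Hmox1. RLX rat 2 held the least Hbb (2.28 CPM) and was the highest in Hmox1. The part of hemoglobin in these values was not tested. Few other antioxidant genes differed: of 30 in the list, Hmox1 included, 3 were lower and 1 higher at p under 0.05. Ftl1, a ferritin chain that stores iron, had 291 to 382 CPM in RLX rats, against 413 to 445 CPM in CTRL rats, and Prdx3, a mitochondrial peroxidase, had 283 to 294 CPM in RLX rats, against 244 to 263 CPM in CTRL rats. Lysosomes degrade what cells take up, and of 30 lysosome and cathepsin genes 17 were lower at p under 0.05, 14 without overlap, and none was higher (median -0.25). The cathepsin Ctsz had 33.8, 31.7, 23.9 and 26.2 CPM in RLX rats, against 46.9, 38.6, 50.5 and 50.9 CPM in CTRL rats (-0.69 ± 0.13, unadjusted p = 1.42e-04).

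Genes of heart muscle lay on the higher side. Of 16 cardiomyocyte markers, 11 were higher at p under 0.05 against 6.27% of all genes, 5 without overlap, and all had a positive log2 fold change (median 0.31). In the sarcomere and Z-disc list, which shares members with it, 19 of 33 were higher and none lower (median 0.31). Tnnt2, the troponin T of the heart, had 6208, 6981, 6661 and 6573 CPM in RLX rats, against 5417, 5732, 5592 and 5194 CPM in CTRL rats (0.27 ± 0.09, unadjusted p = 0.0119). The gap between the groups was small and no rat crossed it. Actn2, which cross-links actin at the Z-disc, had 872 to 1093 CPM in RLX rats, against 692 to 866 CPM in CTRL rats. Ldb3, Nexn and Tmod1, which bind the Z-disc or cap thin filaments, had log2 fold changes of 0.28 ± 0.09, 0.36 ± 0.10 and 0.31 ± 0.09, each without overlap. Myl2, the ventricular light chain, and Myh7b, a slow myosin, overlapped between the groups, with log2 fold changes of 0.37 ± 0.12 and 0.56 ± 0.17.

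Fhl2, a scaffold protein of the sarcomere, was higher in all RLX rats than in all CTRL rats. It had 495, 485, 500.1 and 469 CPM in RLX rats, against 366, 298, 329.5 and 303 CPM in CTRL rats, and the RLX rats were closer to each other than the CTRL rats were. Its level was 1.504-fold higher (0.59 ± 0.10 on the log2 scale, unadjusted p = 5.08e-05, adjusted p = 0.0661 in edgeR's quasi-likelihood test). Of 28 calcium handling genes 8 were higher at p under 0.05 and none lower. Pln, the brake on the sarcoplasmic calcium pump, had 676, 747, 657 and 654 CPM in RLX rats, against 605, 480.4, 580.1 and 489.6 CPM in CTRL rats (0.34 ± 0.11, unadjusted p = 0.00719). Hrc, a calcium-binding protein of the sarcoplasmic reticulum, had 279 to 340.0 CPM in RLX rats, against 221 to 264 CPM in CTRL rats. Jph2, which ties that membrane to the T-tubule, had a log2 fold change of 0.48 ± 0.15 with CTRL rat 2 above RLX rat 1.

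Channels set the conduction and repolarisation of the heart. Of 28 channel and connexin genes 7 were higher at p under 0.05 and none lower (median 0.32). Gja1, the main gap junction protein connexin 43 of ventricular muscle, had 232, 221, 227 and 278 CPM in RLX rats, against 154, 191, 151 and 142 CPM in CTRL rats (0.59 ± 0.12, unadjusted p = 2.78e-04), a 1.502-fold higher level. The lowest RLX rat was above the highest CTRL rat. Kcnk3, a background potassium channel, had 15.01 to 18.8 CPM in RLX rats, against 7.98 to 14.3 CPM in CTRL rats (0.55 ± 0.17).

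**Figure D4:**
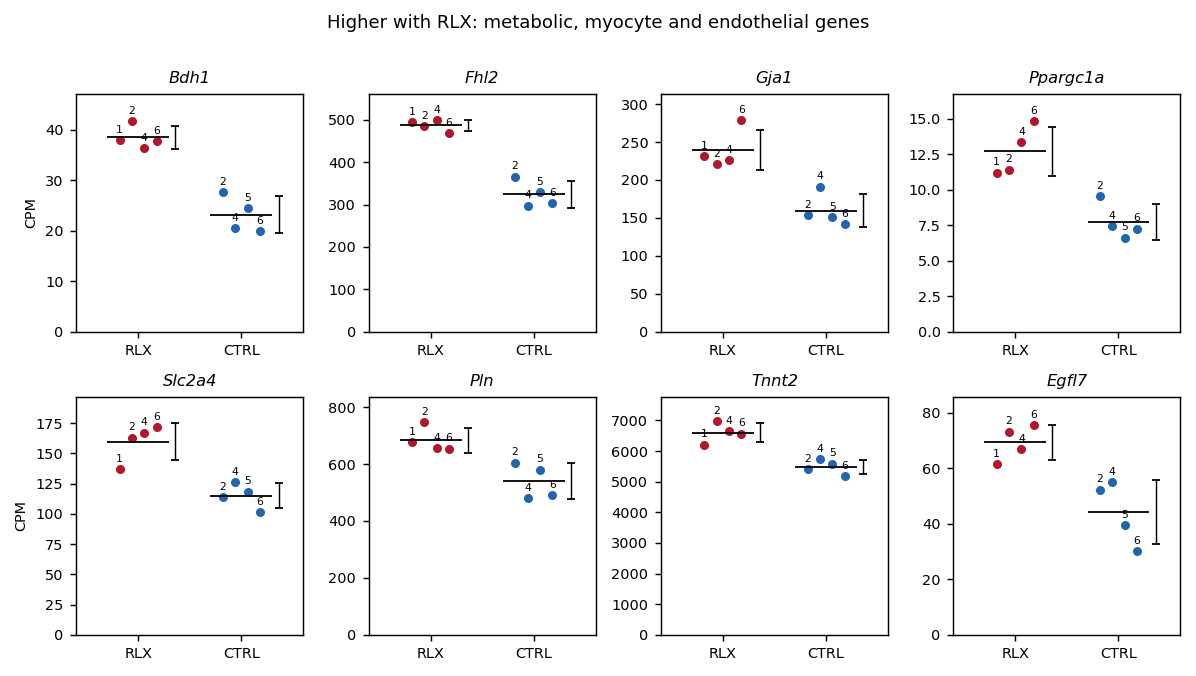
Each panel plots CPM (vertical axis) of a gene in the 4 RLX rats (left) and the 4 CTRL rats (right), labelled by rat number, with a black line for the mean and a bar for the SD. Bdh1, Fhl2, Gja1, Ppargc1a, Slc2a4, Pln, Tnnt2 and Egfl7 were each higher in all RLX rats than in all CTRL rats, as Gja1 shows with 221 to 278 CPM against 142 to 191 CPM.

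Energy metabolism genes leaned the same way. Bdh1, the mitochondrial enzyme that oxidises the ketone body beta-hydroxybutyrate, had 38.0, 41.8, 36.4 and 37.8 CPM in RLX rats, against 27.7, 20.6, 24.5 and 19.9 CPM in CTRL rats. It was 1.66-fold higher, with the smallest unadjusted p of the higher genes that the naming rule took, 3.33e-05 (0.73 ± 0.12 on the log2 scale). Of 28 glycolysis and glucose uptake genes 11 were higher and 1 lower at p under 0.05, 8 of the higher without overlap. Slc2a4, the insulin-regulated glucose transporter GLUT4, had 137, 163, 167 and 172 CPM in RLX rats, against 114, 126, 118 and 102 CPM in CTRL rats (0.47 ± 0.10, unadjusted p = 5.23e-04). Pfkfb2, Pdk2 and Pfkm, which set the flow of glucose through glycolysis and into the mitochondria, had log2 fold changes of 0.60 ± 0.15, 0.45 ± 0.12 and 0.29 ± 0.09, each without overlap.

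Ppargc1a, the coactivator PGC-1 alpha that drives mitochondrial biogenesis, had 11.2, 11.4, 13.4 and 14.8 CPM in RLX rats, against 9.54, 7.42, 6.63 and 7.27 CPM in CTRL rats (0.72 ± 0.15, unadjusted p = 3.45e-04). Ppara, a nuclear receptor for fatty acids, had 5.96 to 8.58 CPM in RLX rats, against 2.57 to 5.84 CPM in CTRL rats. In fatty acid uptake and oxidation 4 of 34 genes were higher and 1 lower at p under 0.05. Echs1, an enzyme of beta-oxidation, had a log2 fold change of 0.38 ± 0.11. Of 66 nuclear genes of the respiratory chain 13 were higher and none lower, 11 without overlap, with a small median of 0.16. Ndufs1 of complex I and Atp5a1 of the ATP synthase had log2 fold changes of 0.30 ± 0.10 each. All 13 genes of the mitochondrial genome were positive (median 0.27), and 1 of them had a p under 0.05, against 6.27% of all genes higher.

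Ribosomal protein genes had a small difference of 1 direction. All 64 cytosolic ribosome genes were negative (median -0.21, or -0.13 with the trend on gene length removed), and 12 were lower at p under 0.05. Rpl3 had 381, 427, 365 and 311 CPM in RLX rats, against 463, 473, 498 and 603 CPM in CTRL rats (-0.46 ± 0.12). Rps19 had 121 to 214 CPM in RLX rats, against 218 to 286 CPM in CTRL rats. In the mitochondrial ribosome 4 of 69 genes were higher at p under 0.05 (median 0.07), near the 6.27% of all genes.

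At p under 0.05, where 7.81% of all genes were lower, the circadian clock list had none of 20 genes higher and 1 lower. This was Per2, a repressor of the clock, with 12.5, 14.6, 11.0 and 13.5 CPM in RLX rats, against 15.7, 19.8, 26.7 and 23.2 CPM in CTRL rats (-0.73 ± 0.16, unadjusted p = 5.69e-04). Its activator Arntl, at 12.99 to 21.8 CPM in RLX rats, against 4.35 to 14.8 CPM in CTRL rats, and the clock output Dbp, at 13.9 to 36.4 CPM in RLX rats, against 27.8 to 72.7 CPM in CTRL rats, overlapped. Without RLX rat 4 and CTRL rats 5 and 6, the log2 fold changes of Per2, Arntl and Dbp were smaller, at -0.38, 0.38 and -0.22. The hour of tissue collection was not given in the sources used here. Of 38 cell cycle genes 5 were lower and 2 higher at p under 0.05 (median -0.23). Bub1, a kinase of the mitotic checkpoint, had 3.23 to 3.62 CPM in RLX rats, against 4.00 to 6.38 CPM in CTRL rats, and Mcm4, a subunit of the replicative helicase, had 6.54 to 9.35 CPM in RLX rats, against 9.61 to 12.7 CPM in CTRL rats.

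The relaxin receptor itself was at a low level. Rxfp1 had 0.993, 1.496, 0.755 and 1.34 CPM in RLX rats, against 0.343, 0.857, 2.35 and 0.973 CPM in CTRL rats, with no difference that this depth could show (-0.04 ± 0.47, unadjusted p = 0.940). Of 21 tested genes of relaxin, nitric oxide and endothelin signaling, 6 were higher at p under 0.05 and none lower (median 0.15). Prkaca, a catalytic subunit of the cyclic AMP-dependent kinase, had 109, 122, 115 and 125 CPM in RLX rats, against 103, 101, 101 and 90.3 CPM in CTRL rats (0.25 ± 0.08, unadjusted p = 0.0109). Adcy6, a cyclase of heart muscle, and Pde4d, which breaks cyclic AMP down, had log2 fold changes of 0.41 ± 0.13 and 0.52 ± 0.17 and overlapped. Vegfa, the vascular growth factor, had 202 to 300.1 CPM in RLX rats, against 141 to 213 CPM in CTRL rats (0.52 ± 0.15).

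Of 19 tested genes that the study lists as markers of cardiac disease, 2 were lower and 2 higher at p under 0.05, and as the study tabulated them for these animals the count is no independent evidence. Cst3, the protease inhibitor cystatin C, had 678, 685, 733 and 548 CPM in RLX rats, against 902, 1046, 748 and 1197 CPM in CTRL rats (-0.56 ± 0.15, unadjusted p = 0.00227). Nppa, the gene of atrial natriuretic peptide, had 794, 437, 722 and 675 CPM in RLX rats, against 201, 188, 6299 and 1034 CPM in CTRL rats. Its log2 fold change of -1.56 ± 1.20 (unadjusted p = 0.241) rested on CTRL rat 5, the library with the most Myl4, and it was 0.47 without that rat and 1.71 (adjusted p = 0.0273 in edgeR's quasi-likelihood test) without RLX rat 4 and CTRL rats 5 and 6. The last setting left out the 2 highest CTRL values, 6299 and 1034 CPM. It kept RLX rat 1, the highest of the RLX rats in Myl4 and Nppa, beside only 2 CTRL rats. Nppb, the related peptide of ventricular muscle, was at 475 to 501 CPM in RLX rats, against 229 to 576 CPM in CTRL rats. The cytokine genes spread widely within groups: Il6 had 2.99 to 16.1 CPM in RLX rats, against 3.34 to 22.7 CPM in CTRL rats, and Tnf had 9.75 to 90.6 CPM in RLX rats, against 6.88 to 32.6 CPM in CTRL rats. Il6 had a log2 fold change of -0.84 (unadjusted p = 0.279), which was -2.02 (adjusted p = 0.0320 in edgeR's quasi-likelihood test) without RLX rat 4 and CTRL rats 5 and 6. RLX rat 4 held the highest Il6 of the RLX rats (16.1 CPM) and CTRL rats 5 and 6 the lowest of the CTRL rats (3.34 and 10.4 CPM). Tnf was at 1.42 on the log2 scale (unadjusted p = 0.171) and at 0.88 without these 3 rats. Ccl3, a macrophage chemokine, was likewise highest in RLX rats 4 and 6 and in CTRL rat 2, at 42.1, 74.4 and 43.7 CPM.

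Further genes were among the lower and higher genes with the smallest p that did not overlap. On the lower side, Dedd2, a death effector domain protein, had 2.86, 3.07, 3.29 and 2.09 CPM in RLX rats, against 5.42, 5.57, 7.50 and 8.18 CPM in CTRL rats, a 2.36-fold lower level (unadjusted p = 4.24e-05). Itm2a, a membrane protein, had 17.1 to 17.9 CPM in RLX rats, against 22.9 to 33.8 CPM in CTRL rats (-0.71 ± 0.12, unadjusted p = 5.34e-05). Pltp, the phospholipid transfer protein, Cd53, a leukocyte tetraspanin, and Hcls1, a hematopoietic actin regulator, had log2 fold changes of -0.69 ± 0.12, -0.59 ± 0.10 and -0.60 ± 0.11. On the higher side, Egfl7, an endothelial secreted protein, had 61.6, 73.2, 66.9 and 75.7 CPM in RLX rats, against 52.3, 55.0, 39.6 and 30.04 CPM in CTRL rats (0.65 ± 0.17, unadjusted p = 0.00304). Sgsm2, Cntnap1, Slc41a3, Slc6a17, Mob1b, Naa40, Zfp238, Clip4 and Rims1 lay between 0.59 and 0.72 on the log2 scale, all without overlap. Slc41a3 is a magnesium transporter family member, Mob1b a coactivator of Hippo pathway kinases and Naa40 a histone acetyltransferase.

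Several other values moved when RLX rat 4 and CTRL rats 5 and 6 were left out together. Among the lower genes, the log2 fold change was smaller for C1r (-0.34), C2_3 (-0.49), Col1a2 (-0.43), Col4a5 (-0.27), Fbln5 (-0.32), Hspd1 (-0.24) and Nfkb1 (-0.18). Among the higher genes it was smaller for Egfl7 (0.39), Jph2 (0.20), Kcnk3 (0.32), Vegfa (0.32) and Ccl3 (0.30), and it was larger for Nppb (0.63). Dnaja1, Hspb1 and Itm2a were at -1.17, -1.14 and -0.86 with adjusted p-values of 0.0320, 0.0112 and 0.0273 in edgeR's quasi-likelihood test. List medians became smaller for the lysosome (-0.17), the respiratory chain (0.10), the mitochondrial genome (0.06) and the mitochondrial ribosome (0.03), and larger for the interferon response (-0.33), calcium handling (0.20) and the relaxin, nitric oxide and endothelin list (0.22). The NF-kB median turned round, to -0.18.

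Whether the female effect differed from the male one was tested as an interaction in 14 libraries and 13017 genes. No gene passed an FDR of 0.05 (0% of genes, smallest adjusted p 0.113 in edgeR's quasi-likelihood test). Without adjustment, at p under 0.05, the female effect lay below the male effect in 709 genes (5.45%) and above it in 1132 genes (8.70%), and with voom in place of the quasi-likelihood test 259 genes passed the FDR. Females and males were loaded on the sequencer at different concentrations, so sex and loading cannot be told apart in this difference.

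Lists of muscle, mitochondria, ribosomes and glucose use held many of the genes with a higher female effect. The trend on gene length was not removed in the interaction fit, and its part in these lists was not tested. The female effect was above the male effect at p under 0.05 in 57 of 66 nuclear respiratory chain genes (medians 0.16 in females and -0.37 in males), in 17 of 33 sarcomere genes (0.31 and -0.26) and in 11 of 16 cardiomyocyte markers (0.31 and -0.31). The same held for 31 of 64 cytosolic ribosome genes, with negative medians in both sexes (-0.21 and -0.63), for 37 of 69 mitochondrial ribosome genes (0.07 and -0.31), for 12 of 28 glycolysis genes (0.19 and -0.15) and for 11 of 33 immediate-early genes (0.08 and -0.87). CTRL male 12 stood apart in some genes. It had 60.1 CPM of Il6, against 14.0 and 11.8 in the other CTRL males, and 727 CPM of Rpl3, against 446 and 425. No male library was left out in turn, so male medians may rest on single rats. The female effect was below the male effect in 5 of 8 MHC class II genes (-0.89 in females and -0.33 in males), 9 of 27 macrophage genes (-0.47 and 0.02), 10 of 24 complement genes (-0.52 and 0.01), 11 of 36 collagen processing genes (-0.53 and -0.00) and 8 of 23 T cell genes (-0.63 and 0.03). Class I genes had negative medians in both sexes (-0.40 in females and -0.31 in males), as did the heat shock genes (-0.44 and -0.48), of which 5 of 18 had a female effect above the male effect at p under 0.05. Fhl2 had a log2 fold change of 0.59 ± 0.11 in females and -0.33 ± 0.12 in males, a difference of 0.92 ± 0.16 (unadjusted p = 3.57e-05), and had 301, 271 and 336 CPM in RLX males, against 330.2, 389 and 422 CPM in CTRL males. Emr1 had a log2 fold change of -0.60 ± 0.13 in females and 0.35 ± 0.15 in males (difference -0.95 ± 0.20, unadjusted p = 1.81e-04). In males its level was 30.6, 40.3 and 32.5 CPM with RLX, against 28.2, 29.1 and 23.8 CPM in CTRL, so the groups were separate in both sexes and in opposite order. For Hmox1 and Hsp90aa1 the difference between the sexes was -0.71 ± 0.71 and -0.74 ± 0.71 (unadjusted p = 0.340 and 0.318). Both genes overlapped in males, where CTRL rat 11 lay below every RLX rat. Hsp90aa1 had 1183, 2452.5 and 1471 CPM in RLX males, against 5267, 3002 and 831 CPM in CTRL males. Hmox1 had 103, 151 and 242 CPM in RLX males, against 526, 253 and 79.4 CPM in CTRL males. Hspb1 was separate in males, at 199 to 257 CPM with RLX, against 304 to 1036 CPM in CTRL.

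**Figure D5:**
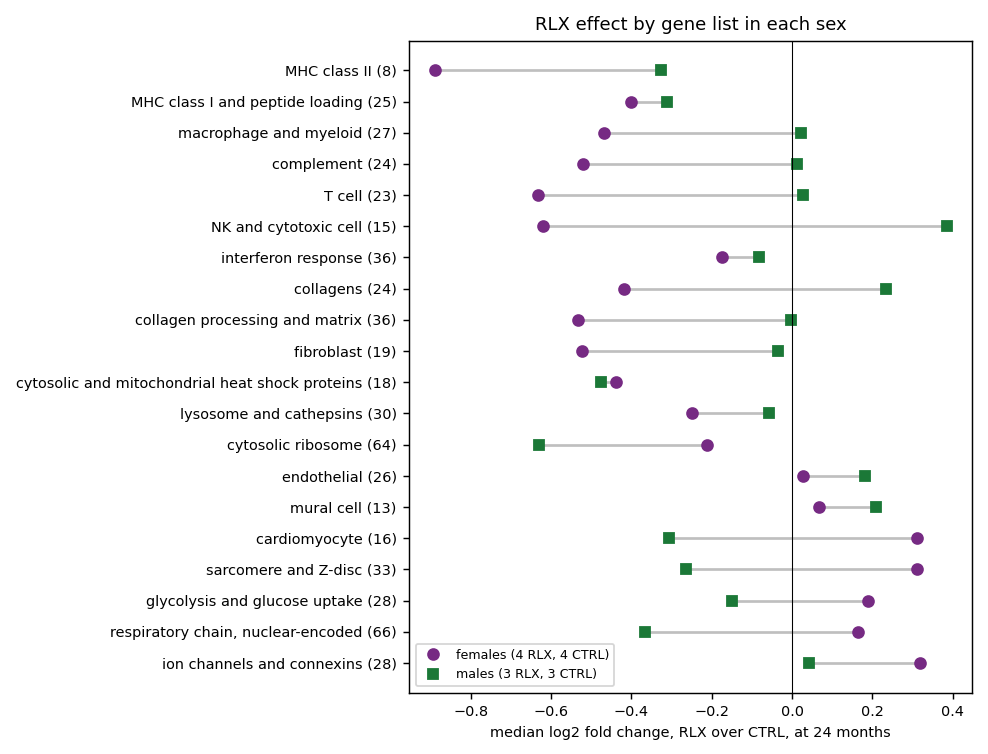
The median log2 fold change (RLX minus CTRL, horizontal axis) of each gene list is plotted for females as circles and for males as squares, both from the fit of 14 libraries. Respiratory chain genes lie at 0.16 in females and -0.37 in males and macrophage genes at -0.47 in females and 0.02 in males, while the heat shock genes lie close together at -0.44 and -0.48. The male RLX and CTRL groups overlapped in heat shock genes such as Hsp90aa1.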

How the data were processed

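The authors removed ribosomal sequences from total RNA, made stranded libraries, sequenced paired reads on a NextSeq 500 and mapped them to a rat genome with Biomedical Genomics Workbench. No source used here names the build. The deposited counts are the authors' total reads per gene, not normalized. The deposited RPKM values, which the authors scaled by library total and gene length, served only for the limit of 1.

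Counts of the 8 libraries were fitted in R 4.3.3 with edgeR 4.0.16 (filterByExpr, TMM factors, robust quasi-likelihood F test, Benjamini-Hochberg adjustment over 12591 genes). CPM were scaled by TMM library sizes. The interaction with sex used 14 libraries. DESeq2 1.42.0, edgeR's exact test and voom (limma 3.58.1) were alternatives. They also covered RLE factors, no filter on low counts, other thresholds, all 3 female groups, gene length, the replicate block and left-out libraries, and, chosen after seeing the data, the mitochondrial genome left out. The pipeline was tested on simulated data.

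Named genes were the 15 lower and 15 higher genes with the smallest p among those past the fold and RPKM limits without overlap, leaving out uncharacterized identifiers. Further named genes were those called by several tools, up to 4 members per list, the study's tabulated genes and the library checks. Emr1, Hspa5, Hspd1, Hspb6, Hspb7, Gata3 and others were named after their values were seen. Lists (48, with 2 subsets) are described by counts and medians without a set test. The members and lists were chosen with earlier results of these data known. Some genes that the naming rule covers are left out of the text.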

Additional observations from a re-analysis of the deposited data

Results flagged for a closer look

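In the following genes a single rat lay far from the other 3 of its group in CPM (Dixon's ratio). This held for 33 of the 244 combinations of gene and group checked, 15 in RLX and 18 in CTRL females. For normally spread values chance gives about 1 in 20. The genes include the library checks and were named with these data known, so the count cannot be weighed against that share.

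RLX rat 4 was the highest of the RLX rats in 7 genes: Hbb (6324 CPM), S100a8 (11.0), S100a9 (20.6), Alas2 (39.2), Hspb1 (668), Dnajb1 (146) and Hspa1a (1250.0). RLX rat 1 was the highest in Sln (8.64 CPM) and Myl4 (39.1), RLX rat 2 in Laptm5 (82.9) and RLX rat 6 in Pfkfb2 (13.6). RLX rat 2 was the lowest in Fbln5 (15.8 CPM) and Tmod1 (188), and RLX rat 6 in Spi1 (7.46) and Prdx3 (283).

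CTRL rat 6 was the highest of the CTRL rats in 6 genes: Hbb (752 CPM), S100a9 (4.87), Alas2 (3.11), RT1-DMa (23.0), Unc93b1 (38.5) and Hspa1a (7527). CTRL rat 5 was the highest in Sln (20.3 CPM), Myl4 (63.0), Cntnap1 (18.6) and Nppa (6299), and CTRL rat 2 in Ccl3 (43.7), Mmp14 (19.6), Cd53 (46.9) and Tnf (32.6). The lowest values were those of CTRL rat 4 in Fcgr3a (2.64 CPM), CTRL rat 5 in Clec10a (54.2) and CTRL rat 6 in Cxcl9 (30.1) and Slc6a17 (13.9).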

How the results depend on the processing

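Of 2140 recomputed values for 119 named genes, 1934 kept their direction and side of the threshold, 183 passed it only under the alternative and 23 turned round. The DEGs, 0 lower and 0 higher in edgeR's quasi-likelihood test, numbered 117 and 20 in DESeq2, 108 and 11 in the exact test, 24 and 5 with no filter on low counts, 21 and 3 with all 3 female groups in the fit, and 38 and 2 without RLX rat 4 and CTRL rats 5 and 6. Rat numbers as a replicate block gave 18 lower DEGs. Same-numbered rats correlated at 0.087, 0.213 and -0.162 in their deviations, and the other pairs at -0.277 to 0.192. So few pairs cannot show whether the numbers pair the rats. With each library left out in turn the lower DEGs ran from 0 to 2 and the higher genes at p under 0.05 from 505 to 953. The difference by sex was called in 259 genes with voom. The cause of these changes was not tested. The log2 fold changes that turned round are given for each gene with their range as each library was left out (without replicate 1, 2, 4, 5 or 6 of a group). Hbb was at -0.38 with the replicate block and -1.37 without the 3 rats, and ran from -5.94 to 7.32. Sln was at 1.29 without the 3 rats and ran from -5.12 to 0.73, and Myl4 was at 0.77 and ran from -2.24 to 0.24. Myl7 was at 0.34 with voom, 0.62 with the block and 1.36 without the 3 rats, and ran from -0.37 to 0.49. Hspa5 ran from -0.0986 to 0.035. Rxfp1 was at 0.34 with voom, 0.72 with the block and 1.08 without the 3 rats, and ran from -0.31 to 0.64. Nppa was at 0.17 with voom, 0.83 with the block and 1.71 without the 3 rats, and ran from -1.94 to 0.47. The setting without the 3 rats kept RLX rat 1, the highest of the RLX rats in Sln, Myl4 and Nppa. Depth limits genes of low level such as Rxfp1, which had a standard error of 0.47 on the log2 scale.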

Other observations

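Members of the lists not described above were counted at an unadjusted p under 0.05, where all genes had 7.81% lower and 6.27% higher. Of 9 tested renin-angiotensin and adrenergic receptor genes 3 were lower and 1 was higher. The lower ones included Agtr1a, the main angiotensin II receptor, at -0.67 on the log2 scale (unadjusted p = 0.00868). In cholesterol synthesis and LDL uptake 5 of 28 genes were higher and 1 lower.

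Of 9 dendritic cell genes 3 were lower, and of 10 Schwann and nerve genes 2 were lower. In IL-6 family signaling 2 of 17 were lower and 1 higher, among 9 adipocyte genes 1 was lower, among 8 lymphatic endothelial genes 1 was higher, and among 28 senescence and p53 genes 2 were lower and 2 higher. The hypertrophy and fetal program list had 2 of 18 genes higher. No gene was past p under 0.05 in the immediate-early (33 tested), atrial muscle (12), erythroid (4), B and plasma cell (3) and neutrophil (1) lists in edgeR's quasi-likelihood test. Some medians turned round without RLX rat 4 and CTRL rats 5 and 6: the immediate-early median was 0.08 and then -0.40, the atrial muscle median -0.10 and then 0.49, the hypertrophy median -0.02 and then 0.37, and the renin-angiotensin and adrenergic median 0.02 and then -0.26. RLX rat 1, the highest of the RLX rats in the atrial genes Sln and Myl4, stayed in that setting.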
